A study of Homo sapiens with 8 samples.

Results

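The genes described here encode the subunits of polycomb repressive complex 2 (PRC2), the enzyme that GSK126 inhibits. They were taken by name: EZH1, EZH2, EED, SUZ12, RBBP4, JARID2, AEBP2, MTF2, PHF1 and PHF19, which are 10 of the 20098 protein-coding genes on chromosomes 1 to 22 and X. Each was measured over its gene body and 2 kb upstream. In PC9 cells none of the 10 genes carried an H3K27me3 island in any list, with or without the inhibitor, and all 10 carried an H3K4me3 island over the start of their main transcript in every list.

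PRC2 places methyl groups on lysine 27 of histone H3. EZH2 and its paralog EZH1 hold the catalytic SET domain, EED binds the trimethylated product (H3K27me3) and stimulates the enzyme, SUZ12 is the scaffold of the core, and RBBP4 is a histone-binding WD-repeat protein that the complex shares with other chromatin regulators. The accessory subunits define alternative forms of the complex. PHF1, MTF2 and PHF19 are the Polycomb-like proteins of PRC2.1, and JARID2 and AEBP2 belong to PRC2.2. H3K27me3 marks silenced developmental genes, whereas trimethylation of lysine 4 (H3K4me3) marks the starts of active or poised genes. Neither mark is a measure of transcript or protein amount, and neither was measured here.

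The cells were PC9, an established human lung adenocarcinoma line, so that all values come from 1 line. They were treated with the solvent DMSO or with 1 μM GSK126, a small molecule inhibitor of EZH2, for 5 days. Chromatin was immunoprecipitated with an antibody to H3K27me3 or to H3K4me3, with 2 libraries for each treatment and mark, and every reaction in both treatments also received a small amount of D. melanogaster chromatin and an antibody to the fly histone H2Av. The data are 14 lists of islands, which are runs of 200-bp windows that hold more sequencing tags than a random background would give. The 8 H3K27me3 lists comprise a standard and a spike-in version of each library, and the 6 H3K4me3 lists comprise both versions for GSK126 and a single list for each DMSO library. In the standard version human tags had been removed until the libraries of a replicate were equal, and in the spike-in version until the fly tags were equal. Replicates are biological per the study's text. The smallest p that exact sign flips over 2 pairs allow is 0.5, so both replicates and their mean ± SD are given instead of p-values. A difference is called larger than the spread where the mean log2 ratio exceeds its SD in size. With 2 values this rule is a description and not a test, and differences without a cause can often meet it. The share of all coding genes that meet it was not computed.

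The lists differed in depth. The average number of tags in a 200-bp window, read from the island scores, was 1.77 for H3K4me3 in replicate 1 and 0.302 in replicate 2 for both treatments of the standard lists. In the spike-in lists GSK126 had 83.6% and 86.9% of the DMSO density for H3K4me3, and 23.1% and 19.6% for H3K27me3. H3K4me3 islands covered 85.2 Mb in DMSO replicate 1 and 39.96 Mb in DMSO replicate 2, so that the length of an island was compared within a replicate only. The DMSO libraries of H3K4me3 bore the marks of the labelled cells. An island lay within 1 kb of the annotated 5′ end of 5 of 6 epithelial and lung genes in both replicates (EPCAM in 1 replicate). None did so for the genes of other lineages (0 of 5). The H3K27me3 libraries were not checked in this way.

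H3K27me3 was absent from the island lists over every PRC2 gene. The covered length was 0 bp for each of the 10 genes in each of the 8 lists, which includes the 278.0 kb measured for JARID2 and the 318.8 kb measured for AEBP2. Among all protein-coding genes, 67% had no H3K27me3 island in any list, and the share was 79.2% for the 12473 genes with H3K4me3 at the start of the main transcript in both DMSO replicates. Long genes without the mark were less frequent. Of 950 genes with a span at least as long as that of JARID2, 44.8% lacked it, and of the 537 of these that also had H3K4me3 at the start, 58.7% lacked it. An absent island means that no run of windows passed the caller's threshold at these depths, and not that the mark was at 0.

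Since no PRC2 gene carried an H3K27me3 island with DMSO, none could lose an island with GSK126, and signal below the threshold was not measured. Of the 5573 coding genes covered in both DMSO replicates of the spike-in lists, 89.7% had a shorter covered length with GSK126 in both replicates. A longer one was found in both for 0.287%. The median log2 ratio, with genes that had no cover left included, was -1.73 in replicate 1 and -1.84 in replicate 2. In the standard lists the shares were 56.3% and 5.45% of 5101 genes. The share of all coding genes with any H3K27me3 island was 29.8% and 30.0% in the DMSO replicates of the spike-in lists against 17.7% and 17.04% with GSK126. The PRC2 genes stood at 0 of 10 on each side of that difference.

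The nearest H3K27me3 islands lay outside the genes, and close to only some of them. Without the inhibitor the median gap was 31.8 kb in replicate 1 and 30.7 kb in replicate 2 of the spike-in lists, against 67.5 and 67.3 kb for the 13472 coding genes that had no H3K27me3 island in any list. With GSK126 the median gap was 218 and 220 kb for the PRC2 genes and 175 and 195 kb for the other set. The order with DMSO turned in the standard lists, where the PRC2 genes had medians of 127 and 155 kb with DMSO against 84.5 and 79.7 kb for the other set, and 208 kb in both GSK126 replicates against 106 and 123 kb. The gaps of single genes that follow are from the spike-in lists unless the standard lists are named, and PHF1 is not described among them.

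PHF19 had a short gap with DMSO. An island began 1.83 kb beyond its measured region in DMSO replicate 1, where it reached into TRAF1, and 2.83 kb beyond it in DMSO replicate 2. With GSK126 the nearest island was 522 and 531 kb away. The treatments did not overlap, in the standard lists either, where the gaps were 1.83 and 2.83 kb with DMSO and 513 and 517 kb with GSK126. How often this is so among all coding genes was not computed.

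AEBP2 had an island 4.47 and 4.27 kb past its 3′ side with DMSO, in a stretch with no coding gene. With GSK126 the nearest one lay 647 and 830 kb away, in PDE3A. The standard lists held no island next to AEBP2 in either treatment, with gaps of 830 and 647 kb for DMSO and of 647 and 646 kb for GSK126.

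MTF2 had gaps of 48.6 and 46.8 kb with DMSO and 295 and 590 kb with GSK126. In the standard lists its gaps were 293 and 294 kb with DMSO and 295 kb in both GSK126 replicates. For AEBP2 and MTF2 the near island and its absence with GSK126 were thus seen in the spike-in lists alone. The H3K27me3 spike-in lists of DMSO held 1.65 and 2.33 tags per 200-bp window, and the standard lists of DMSO 1.36 and 1.55. With GSK126 the spike-in lists held 0.382 and 0.455. The part of depth in these gaps was not tested.

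EZH1 lay 6.69 kb from an island of 12000 and 13600 bp over CCR10 and CNTNAP1 in the 2 DMSO replicates. In the spike-in lists that island was missing with GSK126, where the nearest one was over RAMP2, at 12.3 and 11.9 kb. In the standard lists it was present with GSK126 at 7.49 kb in both replicates, and covered 93.3% and 41.7% of the DMSO island. RBBP4 lay 15.0 and 14.6 kb from an island in SYNC with DMSO, and 176 and 181 kb from one at ZBTB8B with GSK126. In the standard lists the island in SYNC was found in DMSO replicate 1 only, at 15.0 kb, and RBBP4 lay 162 kb from the nearest island in DMSO replicate 2 and in both GSK126 replicates. The groups did not overlap in the spike-in lists for either gene. The share of all coding genes with gaps that do not overlap was not computed.

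The other 4 genes were distant from H3K27me3 in both treatments. EZH2 lay 160 and 161 kb from the nearest island with DMSO and 161 kb from it in both replicates with GSK126. JARID2 lay 147 and 149 kb away with DMSO and 149 and 146 kb away with GSK126. The gap of SUZ12 was 255 and 114 kb with DMSO and 259 kb in both GSK126 replicates, and in the standard lists 114 kb in both DMSO and 255 kb in both GSK126 replicates. EED, with 715 and 648 kb for DMSO and 715 kb in both GSK126 replicates, was the most isolated with DMSO. For EZH2 and JARID2 the treatments differed by less than the spread between replicates.

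The islands nearest to the 10 genes in DMSO replicate 1 were followed through the other spike-in lists. All 10 were overlapped by an island in DMSO replicate 2, where 90.5% of all islands were. An island of both GSK126 replicates overlapped 4 of the 10, and 35.2% of the 32462 islands shared by the DMSO replicates. Together the 10 islands measure 53.2 kb in DMSO replicate 1, which defines them, so that their cover there is complete by definition. They were covered over 46.6 kb in DMSO replicate 2 and over 11.6 and 13.8 kb with GSK126. The covered length of all such islands was not computed. In the standard lists 8 and 7 of the 10 were covered with DMSO and 6 in each GSK126 replicate.

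**Figure D1:**
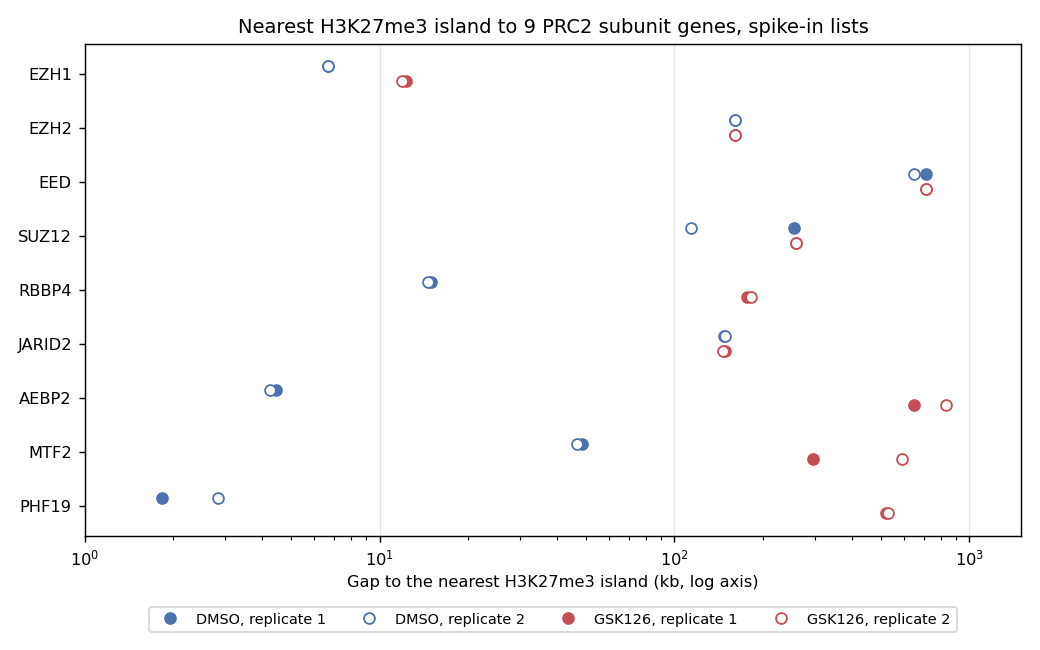
Gap in kb on a log axis between 9 PRC2 genes (gene body with 2 kb upstream; PHF1 is not drawn) and the nearest H3K27me3 island in the spike-in lists. Filled points are replicate 1 and open points replicate 2, blue for DMSO and red for GSK126. PHF19, AEBP2, MTF2, RBBP4 and EZH1 have longer gaps with GSK126 in these lists. SUZ12 does too, with 255 and 114 kb in the DMSO replicates and 259 kb in both GSK126 replicates. The gaps of EZH2 and JARID2 are alike in both treatments.

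H3K4me3 was present at all 10 genes. An island covered the start of the MANE Select transcript, the reference transcript chosen jointly by GENCODE and RefSeq, in all 6 lists for 10 of 10 genes. Of all coding genes, 61.1% had an H3K4me3 island within 1 kb of that start in all 6 lists and 62.1% in both DMSO replicates. When the outermost annotated 5′ end was used in its place, 7 of 10 genes had an island within 1 kb in both DMSO replicates (59.4% of all coding genes), and with any coding start 10 of 10 had one (64.2%). The exceptions were EED, AEBP2 and PHF19, whose annotated 5′ ends come from alternative transcripts. Their islands lay at the MANE Select start, which is 43.5, 35.4 and 17.7 kb downstream of the respective 5′ end.

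**Figure D2:**
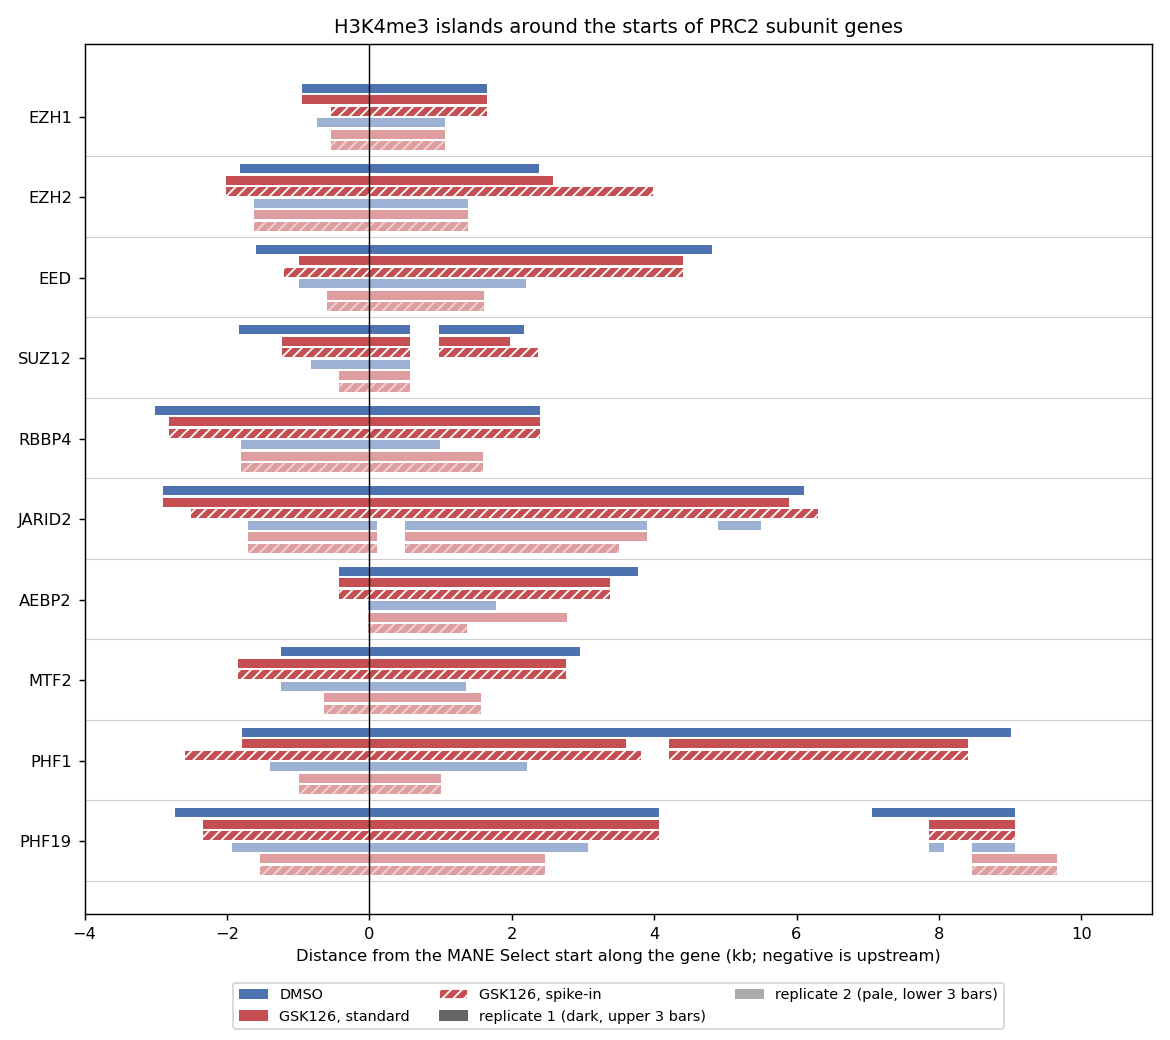
H3K4me3 islands around the MANE Select start (0 kb) of each PRC2 gene, as bars along the direction of transcription, with 6 bars per gene (DMSO in blue, GSK126 standard in red, GSK126 spike-in hatched; replicate 1 dark and above, replicate 2 pale and below). Every gene has a bar across the start in all 6 lists, SUZ12 and JARID2 show gaps inside their marked region, and the PHF1 bar of DMSO replicate 1 is split with GSK126; the small JARID2 island about 185 kb downstream lies outside the axis.

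The RefSeq promoters of these genes are shown to let the marked starts be seen. RefSeq (GRCh37, matched by exact sequence) gives 14 promoters for the 10 genes, taken as the 250 bases before the start, and 13 of them were wholly covered by H3K4me3 islands in all 6 lists. None was touched by an H3K27me3 island. The promoters held 11 to 39 CG dinucleotides with a median of 27, against a median of 11 over all 35114 promoters of the table. Letters were searched on both strands for short motifs. CCAAT, the NF-Y box, was found in 8 of the 14 promoters (6 of 10 genes) and in 32.0% of all promoters. GGGCGG, the GC box bound by SP1, was found in 11 of 14 (7 of 10 genes) and in 42.6% of all. The RBBP4 promoters overlap each other, so that some of their matches are counted in both. The E2F-type sequence TTTCCCGC was in 2 of 14 (1.39% of all), and TTTGGCGC was in 0 of 14 (0.55% of all). The palindromic NRF1 consensus was in 0 of 14 (1.03% of all), and TATAAA was in 1 of 14, a JARID2 promoter (10.7% of all). These matches describe the letters only, and neighbouring GGGCGG matches can overlap.

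The sequences printed are those of both catalytic paralogs, of the core subunits EED and SUZ12 and of PHF19, the 250 bases before the MANE Select start in each, 5′ to 3′ on the strand of the gene. Capitals mark the CCAAT box, the GC box (GGGCGG) and TTTCCCGC on either strand. The positions are chr7:148581384-148581633 (minus strand) for EZH2, chr17:40897059-40897308 (minus) for EZH1, chr11:85955545-85955794 (plus) for EED, chr17:30263776-30264025 (plus) for SUZ12 and chr9:123639467-123639716 (minus) for PHF19, all in GRCh37.
EZH2: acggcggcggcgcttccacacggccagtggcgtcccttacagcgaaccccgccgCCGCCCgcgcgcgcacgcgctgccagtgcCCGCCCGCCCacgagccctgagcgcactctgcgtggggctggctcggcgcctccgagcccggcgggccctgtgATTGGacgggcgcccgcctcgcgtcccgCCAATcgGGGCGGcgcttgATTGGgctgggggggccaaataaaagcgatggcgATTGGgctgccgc
EZH1: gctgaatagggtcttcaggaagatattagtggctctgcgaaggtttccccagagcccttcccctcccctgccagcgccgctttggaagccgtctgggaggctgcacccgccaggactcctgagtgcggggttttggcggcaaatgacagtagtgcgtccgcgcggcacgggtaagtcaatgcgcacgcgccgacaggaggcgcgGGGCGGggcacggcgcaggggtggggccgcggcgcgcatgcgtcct
EED: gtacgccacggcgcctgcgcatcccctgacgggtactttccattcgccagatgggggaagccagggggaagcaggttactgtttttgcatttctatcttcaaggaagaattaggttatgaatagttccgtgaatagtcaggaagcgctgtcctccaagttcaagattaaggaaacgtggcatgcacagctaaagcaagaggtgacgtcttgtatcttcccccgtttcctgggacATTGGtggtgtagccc
SUZ12: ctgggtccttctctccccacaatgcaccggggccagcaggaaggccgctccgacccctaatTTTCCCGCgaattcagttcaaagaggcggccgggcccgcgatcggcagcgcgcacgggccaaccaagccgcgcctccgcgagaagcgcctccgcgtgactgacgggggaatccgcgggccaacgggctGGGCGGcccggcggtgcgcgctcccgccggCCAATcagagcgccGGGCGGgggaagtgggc
PHF19: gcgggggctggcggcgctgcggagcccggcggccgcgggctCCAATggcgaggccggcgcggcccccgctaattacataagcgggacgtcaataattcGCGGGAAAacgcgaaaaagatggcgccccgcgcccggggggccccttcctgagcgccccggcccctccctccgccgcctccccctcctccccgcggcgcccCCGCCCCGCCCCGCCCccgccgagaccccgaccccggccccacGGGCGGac

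The EZH2 promoter held 4 CCAAT and 4 GGGCGG matches and 38 CG dinucleotides, and that of EZH1 held no CCAAT, 1 GGGCGG and 26 CG. EED had the fewest CG of the 14, 11, with 1 CCAAT match and no GGGCGG. SUZ12 and PHF19 were the genes with TTTCCCGC. All 5 sequences lay wholly inside an H3K4me3 island in each of the 6 lists.

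GSK126 left the H3K4me3 islands of the 10 genes close to their DMSO length when these were summed. The genes had 54789 bp covered in DMSO replicate 1, 52389 bp with GSK126 in the standard list and 54789 bp in the spike-in list. In replicate 2 the sums were 31800, 29200 and 27400 bp. On the log2 scale GSK126 over DMSO came to -0.09 ± 0.04 (SD, n = 2) in the standard lists and to -0.11 ± 0.15 in the spike-in lists. The first of these exceeded its spread and the second did not. The cover of all H3K4me3 islands was lower with GSK126 as well. It was 85.2 and 39.96 Mb in the DMSO replicates. With GSK126 it was 70.8 and 37.2 Mb in the standard lists and 73.6 and 34.9 Mb in the spike-in lists.

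Of the 10 genes, 4 had less H3K4me3 length with GSK126 in both replicates of the standard lists (EED, SUZ12, PHF1 and PHF19), where the share among the 13669 coding genes covered in both DMSO replicates was 37.8%. In the spike-in lists 5 did (EZH1, EED, SUZ12, AEBP2 and PHF19), against 37.1%. No PRC2 gene was higher in both replicates of either version, against 6.76% and 8% of all coding genes. The median of the genes' mean log2 ratios was -0.07 in the standard and -0.19 in the spike-in lists, and over all coding genes it was -0.12 in each. The counts for the PRC2 genes are near the background shares. The DMSO lists are the same in both versions, so that the 2 versions are not independent.

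**Figure D3:**
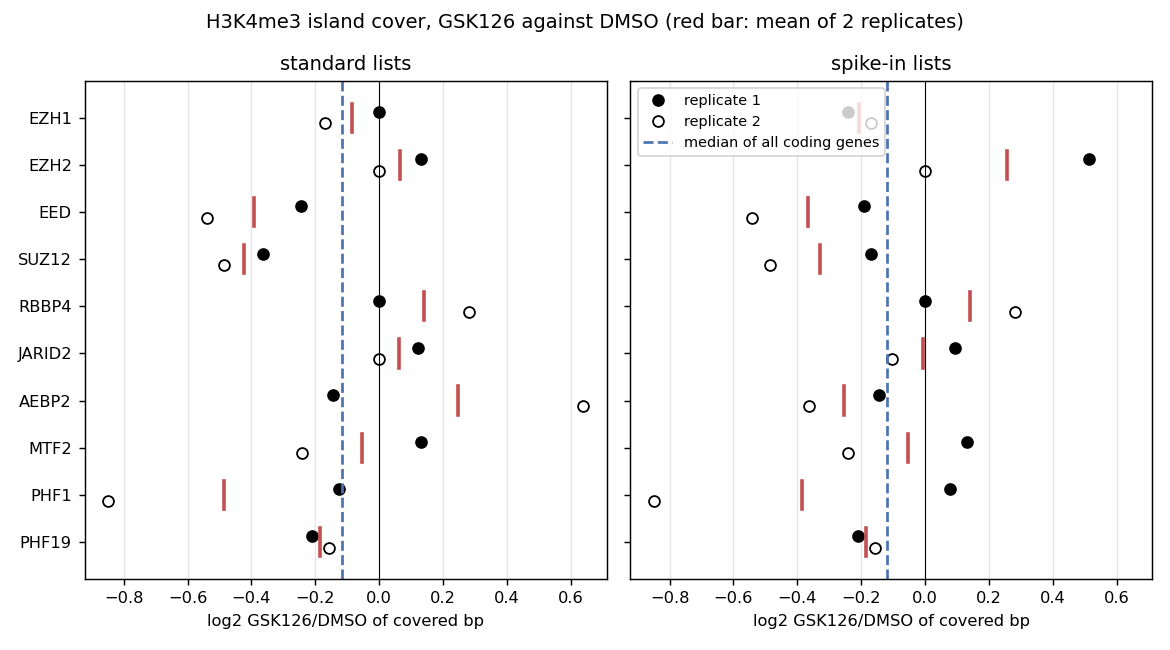
log2 ratio of GSK126 to DMSO of the bp covered by H3K4me3 islands, for each PRC2 gene, in the standard lists (left) and the spike-in lists (right). Filled points are replicate 1, open points replicate 2, red bars their mean, and the dashed line is the median over all coding genes covered in both DMSO replicates; EED, SUZ12 and PHF19 lie left of 0 in both replicates of both panels.

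Among the catalytic subunits, EZH2 had an island of 4.2 kb in DMSO replicate 1 and 3.0 kb in DMSO replicate 2. With GSK126 it was 4.6 and 3.0 kb in the standard lists and 6.0 and 3.0 kb in the spike-in lists. The inhibited enzyme's own gene was thus longer in replicate 1 and equal in replicate 2, with log2 ratios of 0.07 ± 0.09 and 0.26 ± 0.36, which are within the spread. The 6.0 kb island came from the list in which a window needed as few as 3 tags to count, against 4 in the DMSO and standard GSK126 lists of replicate 1, and the part of this in the result was not tested. By its score the island ranked above 91.2% and 88.9% of the islands in the 2 DMSO lists, and between 87.8% and 92.9% in the GSK126 lists.

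EZH1 had the shorter island of the 2 paralogs in every list. It was 2.6 and 1.8 kb with DMSO, 2.6 and 1.6 kb with GSK126 in the standard lists, and 2.2 and 1.6 kb in the spike-in lists. The log2 ratio was -0.08 ± 0.12 in the standard lists and -0.21 ± 0.05 in the spike-in lists, so that only the latter exceeded its spread. With the gene body alone the spike-in ratio was 0. Its differences are 1 or 2 windows of the caller.

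Of the core subunits, EED had 6.4 and 3.2 kb with DMSO. With GSK126 it had 5.4 and 2.2 kb in the standard lists and 5.6 and 2.2 kb in the spike-in lists. The log2 ratios were -0.39 ± 0.21 and -0.37 ± 0.25, both beyond their spread. The island also covers the start of a divergent long noncoding RNA gene (ENSG00000288809) 220 bp away, so that the signal of the 2 starts cannot be told apart.

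SUZ12 had 3.6 and 1.4 kb with DMSO, the lowest value of the 10 genes in DMSO replicate 2. With GSK126 it had 2.8 and 1.0 kb in the standard lists and 3.2 and 1.0 kb in the spike-in lists, which gives log2 ratios of -0.42 ± 0.09 and -0.33 ± 0.22. Both exceed their spread, but most of the difference lies upstream of the start. With the gene body alone the ratio was -0.09 in the standard and 0.077 in the spike-in lists. The sequence limits this gene. In all 3 lists of replicate 1 its islands stop at 1 edge and resume at the other edge of a 400-bp gap in which 0% of 50-base stretches occur once in GRCh37, while tags of low mapping quality had been removed. Within 1 kb of its start 57.4% of 50-base stretches are unique, against 97.5 to 100% for the other 9 genes.

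RBBP4 had 4458 bp in all 3 lists of replicate 1. In replicate 2 the value was 2800 bp for DMSO and 3400 bp for both versions of GSK126. Its log2 ratio of 0.14 ± 0.20 is within the spread. The island starts upstream of the measured region in replicate 1 and inside it in replicate 2. The equal values of replicate 1 are thus cut at the edge of that region. The whole island was 5.4 kb there with DMSO and 5.2 kb in both versions of GSK126. In both DMSO replicates it also covers the start of ZBTB8OS, a gene on the opposite strand whose start is 658 bp away.

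Of the PRC2.2 subunits, JARID2 had the most H3K4me3, with 9.10 and 5.80 kb with DMSO. With GSK126 it had 9.90 and 5.80 kb in the standard lists and 9.70 and 5.40 kb in the spike-in lists, and the log2 ratios of 0.06 ± 0.09 and -0.01 ± 0.14 are within the spread. In replicate 1 an island of 8.8 to 9.0 kb spanned its 2 RefSeq starts, which are 2786 bp apart, and in replicate 2 each start had an island of its own. In both DMSO replicates the islands also cover starts of long noncoding RNA genes on the opposite strand. These are JARID2-DT, 1069 bp away, and JARID2-AS1, 2565 bp away, so the signal of the starts cannot be told apart. A small island of 0.6 to 2.0 kb inside the gene, about 185 kb downstream of the start, appeared in 5 of the 6 lists and was not listed in DMSO replicate 2. It is 68389 bp or more from any annotated JARID2 start, and its score was above only 10.9 to 31.4% of the islands of its lists.

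AEBP2 had 4.2 and 1.8 kb with DMSO. With GSK126 it had 3.8 kb in replicate 1 in both versions, but in replicate 2 it had 2.8 kb in the standard and 1.4 kb in the spike-in list. The direction in replicate 2 therefore turned between the versions, and the log2 ratios were 0.25 ± 0.55, within the spread, and -0.25 ± 0.15, beyond it.

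Among the Polycomb-like subunits, PHF19 had the smallest SD of the 10 genes in both versions. It had 8.8 and 5.8 kb with DMSO and 7.6 and 5.2 kb with GSK126 in both versions, which is a log2 ratio of -0.18 ± 0.04 in each. Most of this length was 1 island of 6.8 and 5.0 kb with DMSO and 6.4 and 4.0 kb with GSK126 at the MANE Select start. The rest was 1 or 2 low-scoring islands near a second RefSeq start 8277 bp downstream, whose promoter was wholly covered in 3 of the 6 lists.

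PHF1 had 7230 and 3600 bp with DMSO. With GSK126 it had 6630 and 2000 bp in the standard lists and 7630 and 2000 bp in the spike-in lists, and the log2 ratios of -0.49 ± 0.51 and -0.39 ± 0.65 are within the spread. Its island changed shape in replicate 1. With DMSO it was 10.8 kb long and ran through the short gene to the start of CUTA, 7093 bp away on the opposite strand, and with GSK126 it was split into islands of 5.4 and 4.2 kb in the standard and 6.4 and 4.2 kb in the spike-in list. The score of the island at the PHF1 start was above 86.0% of its list with DMSO and 55.8% with GSK126 in the standard version. The GSK126 island at the start no longer includes the CUTA side.

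MTF2 had 4.2 and 2.6 kb with DMSO and 4.6 and 2.2 kb with GSK126 in both versions. It was longer in replicate 1 and shorter in replicate 2, and the log2 ratio of -0.05 ± 0.26 is within the spread.

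**Figure D4:**
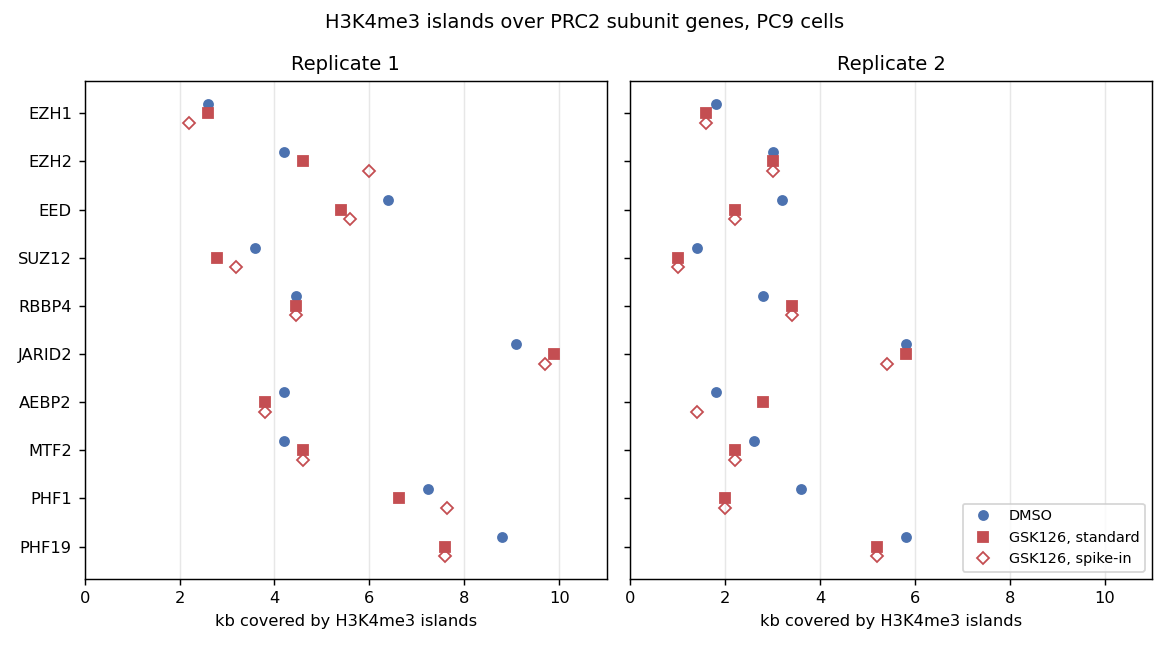
kb covered by H3K4me3 islands over each PRC2 gene in replicate 1 (left) and replicate 2 (right), with blue circles for DMSO, filled red squares for GSK126 in the standard list and open red diamonds for GSK126 in the spike-in list. JARID2, PHF19 and PHF1 have the most covered length and EZH1 and SUZ12 the least with DMSO in replicate 1, and all values are lower in replicate 2, which had fewer tags.

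The order of the genes by covered length was similar in the DMSO replicates at its upper end. It is a description, and its relation to gene length or to the number of starts was not tested. JARID2, PHF19 and PHF1 held 9.10, 8.80 and 7.23 kb in replicate 1 and 5.80, 5.80 and 3.60 kb in replicate 2. EZH1 and SUZ12 were below 4 kb in replicate 1 and at 1.8 and 1.4 kb in replicate 2, where AEBP2 stood at 1.8 kb as well. EED led the remaining genes in both replicates, and EZH2 and RBBP4 changed places. As a share of the measured region the order is another one: in DMSO replicate 1 PHF1, the shortest gene, was covered over 89.8%, PHF19 over 21.3%, EZH2 over 5.31%, JARID2 over 3.27% and AEBP2 over 1.32%. By score, the highest island at each start was ranked against all islands of its list, and the median stood above 83.0 to 90.04% of them. SUZ12 was lowest in every list, at 34.3 to 50.3%. The ranks of islands at the starts of other genes were not computed, so these ranks cannot be called high for a marked start.

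The genes with island cover most like that of EZH2, in percent of the measured region over the 14 lists, were SENP5, NUP188 and RPA1. Their Euclidean distances to EZH2 were 1.16, 1.22 and 1.28 percentage points, the smallest among 2224 coding genes of similar length. Like EZH2 they had no H3K27me3 island in any list, as was the case for 67% of all coding genes. The 8 H3K27me3 lists were part of the distance, so this absence follows in part from how the genes were picked.

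A further 10 genes around the complex were taken for comparison: the subunits and cofactors RBBP7, EPOP, SKIDA1, LCOR, LCORL and EZHIP, the H3K27 demethylases KDM6A and KDM6B, and BAP1 and ASXL1, which remove ubiquitin from histone H2A. Of these, 9 had no H3K27me3 island in any list, against 67% of all coding genes. The exception was EPOP, with 445 bp in DMSO replicate 2 of both versions and 0 bp in the other lists. H3K4me3 was present at the start of 9 in all 6 lists, against 61.1% of all coding genes. EZHIP, an inhibitor of the complex normally found in germ cells, had neither mark. With GSK126 the H3K4me3 length was lower in both replicates for 6 of the 10 (RBBP7, EPOP, LCORL, KDM6B, ASXL1 and BAP1) and higher in both for SKIDA1, in the standard and in the spike-in lists. EZHIP had no covered length and could not be called. Among coding genes covered in both DMSO replicates, 37.8% (standard) and 37.1% (spike-in) were lower in both. The shares that were higher in both were 6.76% and 8%. SKIDA1 had 9297 and 6000 bp with DMSO and 10297 and 7000 bp with GSK126 in the standard lists, a log2 ratio of 0.18 ± 0.05.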

How the data were processed

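ChIP-seq islands of H3K27me3 and H3K4me3 from 8 PC9 libraries were analysed. The authors mapped 50-nt tags to hg19 (GRCh37) using BWA, removed duplicates and tags with a mapping quality of 25 or less, removed human tags at random within each replicate (to equal human tags, or by the D. melanogaster correction factor), and called islands with SICER 1.1 (random background, E-value 1, windows of 200 bp, a gap of 600 bp in H3K27me3 and of 200 bp in H3K4me3 libraries). SAMtools 0.1.18 is in the submitters' processing notes. Each deposited list gives the position of an island and a score, which is the authors' sum over windows of the negative log Poisson probability of the tag count. The score depends on depth and was used only to rank islands within a list and to solve for the tag density (SciPy 1.17.1). No tag counts were used, so no counting interval is given.

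Samples were grouped by the antibody and treatment in their labels. The labels number no replicates, and the pairing follows the study's tag table, in which tags were removed within a replicate. Base pairs covered over gene body plus 2000 bp upstream were computed for 20098 coding genes (GENCODE 44 lifted to GRCh37) with Python 3.11.15 and NumPy 2.4.6, and log2 ratios were formed within a replicate. Coverage and density scripts were tested on simulated data. Unique 50-base stretches were counted on GRCh37 with numba 0.67.0. PECAM1, a planned marker, was not analysed here, and the gap at PHF1 is not reported here. Plots were drawn with Matplotlib 3.10.9.

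The named genes are the 10 members and a fixed list of 10 further genes, with the genes at neighbouring islands and the 3 most like EZH2. Members and lists were chosen with earlier results of these data known. Alternatives tried were a score at least 2 times the lowest of the list, minimum island lengths (2000 bp for H3K27me3, 600 bp for H3K4me3), other upstream lengths, 5000 bp on either side of the start, other definitions of the start, leaving out each replicate and ignoring the pairing.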

Additional observations from a re-analysis of the deposited data

How the results depend on the processing

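With 2 replicates no comparison was tested, and islands say nothing of signal below the caller's threshold. The absence of H3K27me3 held for gene bodies and 2000 bp upstream, under the stricter score and length limits too. With 5000 bp upstream or on either side of the start, 1 gene (PHF19) had an island in the 8 lists and it was covered less with GSK126 in both replicates. With 10000 bp upstream the counts were 1 and 1, and with 50000 bp they were 3 (PHF19, EZH1 and MTF2) and 2. These last 2 settings were chosen after seeing the data. The shares of all coding genes were not computed for the wider regions, so these counts cannot be called high or low. Because nothing was covered over the gene bodies and 2000 bp upstream, no log2 ratio for H3K27me3 could be formed there, against the standard DMSO lists either, and none was computed for the wider regions.

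The number of genes with less H3K4me3 length in both replicates fell from 4 to 2 (standard) and from 5 to 3 (spike-in) when only 5000 bp on either side of the annotated 5′ end was used, where EED, AEBP2 and PHF19 gave no value. Leaving out 1 replicate gave 5 to 6 genes in the standard lists and 5 to 8 in the spike-in lists, the 8 without replicate 1. The summed log2 ratio ranged from -0.12 to -0.06 (standard) and from -0.21 to 0 (spike-in) without 1 replicate. Without the replicate pairing it was -0.09 and -0.08, and the counts of genes with less length, taken from summed replicates, were 5 and 6. Among single genes, the spike-in ratio of SUZ12 reversed to 0.077 with no upstream stretch, as given with its values, and that of EZH1 went to 0. With the stricter score the standard ratio of SUZ12 was -0.13 and the spike-in ratio of PHF19 -0.39. The causes were not tested.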
